A study of Mus musculus with 10 samples.

Results

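The 10 genes followed here encode Polycomb repressive complex 2 (PRC2), namely Ezh1, Ezh2, Eed, Suz12, Jarid2, Mtf2, Phf1, Phf19, Aebp2 and Epop. They were chosen by name as the core and accessory genes of the complex, and all 10 were found among the 30677 genes of the count table and among the 20027 genes with enough reads to be tested. TNGA cells are one line of mouse embryonic stem (ES) cells in which a single Nanog allele carries a GFP reporter, and all cultures grew in serum and leukemia inhibitory factor (LIF). For 48 hours, 3 cultures were given 100 μM MB-3, an inhibitor of the histone acetyltransferase Kat2a (also called Gcn5), and 3 were given the solvent DMSO alone, with 0.1% DMSO by volume in every culture. Poly(A) RNA was sequenced from each culture, and the libraries carry the letters A, B and C within each treatment. Acetylation of histone H3 at lysine 9 (H3K9ac) was mapped in duplicate cultures of the same treatments, which the authors merged into 1 peak list per treatment.

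PRC2 places methyl groups on lysine 27 of histone H3, a mark of silent developmental genes in ES cells. Ezh2, or its relative Ezh1, is the catalytic subunit, and it works only when bound to Eed, which reads the mark, and to Suz12, which holds the complex together. Accessory proteins form alternative complexes: PRC2.1 holds a Polycomb-like protein (Phf1, Mtf2 or Phf19) and may hold Epop, whereas PRC2.2 holds Jarid2 and Aebp2. The Polycomb-like proteins bind unmethylated CpG-rich DNA, and Jarid2 and Aebp2 link PRC2 to histone H2A ubiquitinated by Polycomb repressive complex 1 (PRC1).

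The ES cell identity of the libraries was checked first. Pou5f1 lay between 650.4 and 716.7 CPM (reads per 1000000 normalized library reads) and Sox2 between 436.1 and 476.5 CPM in the 6 libraries, both transcription factors that define pluripotent cells. Kat2a itself, the enzyme that MB-3 inhibits, stood at 126, 139 and 127 CPM in DMSO A, B and C and at 124, 131 and 133 CPM in MB-3 A, B and C, so its transcript did not separate the treatments. Its relative Kat2b ranged from 52.2 to 62.6 CPM, again with overlapping groups. The DMSO libraries held between 46863700 and 51137896 counted reads and the MB-3 libraries between 42270312 and 49334434, so that 1 CPM stood for 42.9 to 50.2 reads.

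The members differed widely in level. Per kilobase of annotated exon, Mtf2 had the highest mean in DMSO, 73.6 ± 3.05 CPM per kb (SD, n = 3), and Epop followed with 66.4 ± 7.87, a pair whose libraries overlapped. Eed (50.4 ± 3.27), Suz12 (45.3 ± 1.35), Jarid2 (34.03 ± 3.99), Ezh2 (22.5 ± 1.06), Aebp2 (10.8 ± 0.554) and Ezh1 (5.399 ± 0.0894) came next in CPM per kb, and each of these was separate in all 3 DMSO libraries from its neighbours in the order. Phf1 (2.85 ± 0.171) and Phf19 (2.84 ± 0.239) had the lowest levels and were not distinguishable from each other. Among the Polycomb-like proteins the order was therefore Mtf2 far above Phf1 and Phf19, and between the catalytic subunits it was Ezh2 above Ezh1. These levels per kb depend on the exon annotation, since the length of the transcripts in use was not measured. The longest transcripts of Ezh2 and Eed have 2787 and 2067 bp, well below their exon unions of 6678 and 3828 bp. The places of these 2 genes in the order can therefore change with the length used.

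Under MB-3 the transcripts of Ezh2, Eed and Suz12 stayed close to their DMSO levels, while Jarid2, Aebp2, Phf19 and Ezh1 lay above DMSO in every library and Phf1 lay below. In the edgeR quasi-likelihood fit on treatment alone, with Benjamini-Hochberg adjustment, 0 of the 10 members had an adjusted p-value under 0.05, against 0.205% of all tested genes. Before adjustment, 5 of 10 had p under 0.05 (Jarid2, Aebp2, Phf19, Ezh1 and Phf1), against 10.9% of all genes. These 5 members were also those whose libraries did not overlap between treatments, against 15.6% of all genes, with 4 members higher in MB-3 (8.22% of all genes) and 1 lower (7.37% of all genes). When the replicate letter was added to the model as a block, 3 of the 10 members, Jarid2, Aebp2 and Phf19, rose and 0 fell, where 7.12% of all genes were called, 3.22% as higher and 3.9% as lower. DESeq2 called 1 member, Jarid2, against 0.959% of all genes. In these bulk libraries a change in the number of cells that express a gene and a change in RNA per cell cannot be told apart.

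**Figure D1:**
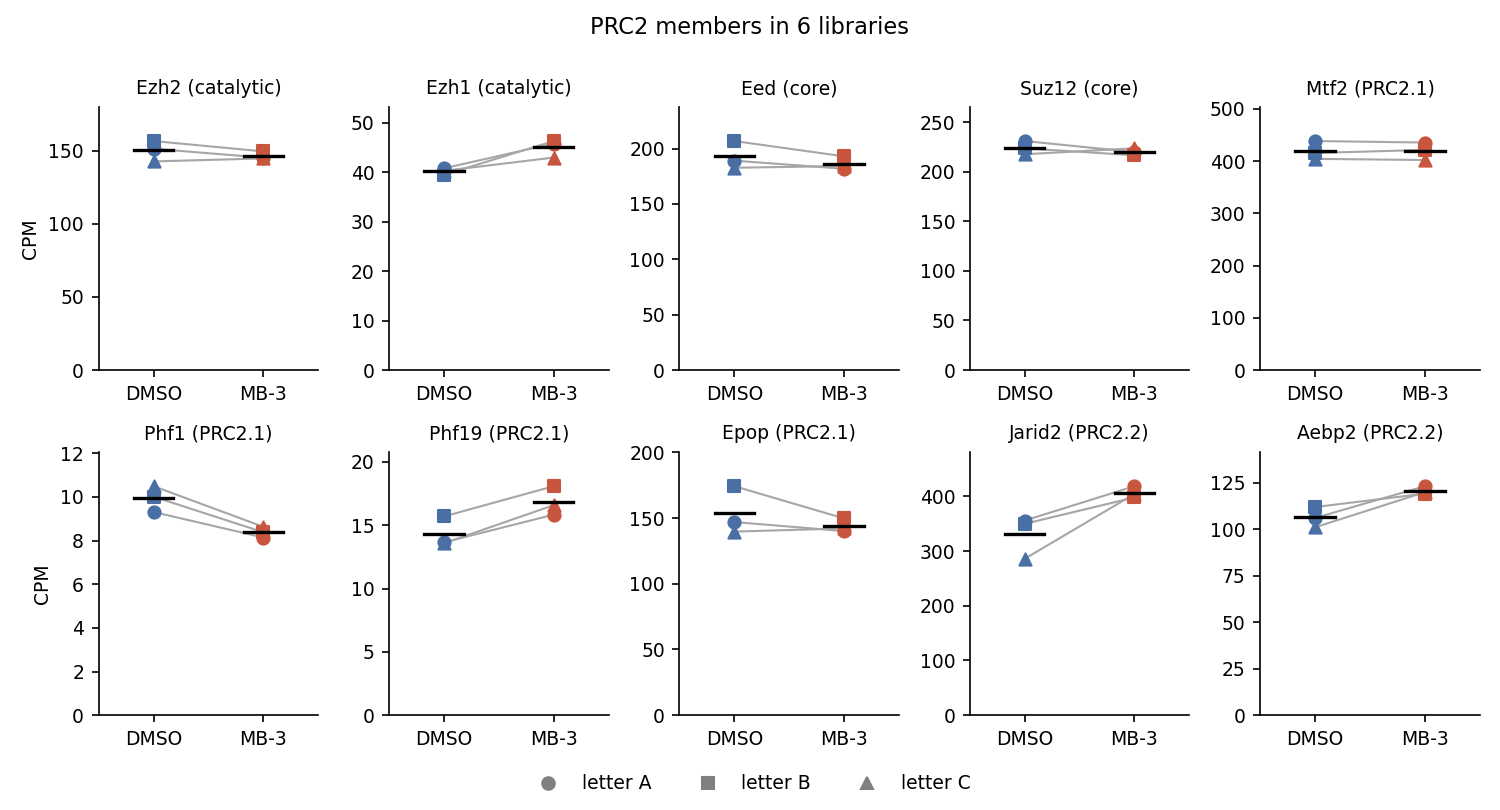
Level of each PRC2 member in CPM (vertical axes from 0, scaled per gene) in the 3 DMSO and 3 MB-3 libraries; symbols give the replicate letter, grey lines join libraries of the same letter and black bars are means. Jarid2, Aebp2, Phf19 and Ezh1 are higher in all MB-3 libraries than in any DMSO library, Phf1 is lower, and the groups overlap for the other 5.

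Jarid2, the DNA-binding partner of PRC2.2, had the largest log2 fold change in size among the members when all libraries were used, an order that did not hold in the blocked fit without letter C (0.21, against -0.23 for Phf1). Its level was 356, 350.0 and 286 CPM in DMSO A, B and C, and 419, 398 and 404 CPM in MB-3 A, B and C. The groups did not overlap, and the DMSO libraries were spread more widely than the MB-3 libraries because DMSO C was low. Mean levels were 331 ± 38.8 CPM with DMSO and 407 ± 10.6 CPM with MB-3 (SD, n = 3), and the log2 fold change was 0.30 (SE 0.077, 95% interval 0.13 to 0.47), a rise of 23.1% with an interval from 9.80% to 38.1%. With treatment alone the adjusted p-value was 0.163 (edgeR), and with the replicate block it was 5.3e-05 at a log2 fold change of 0.31 (SE 0.048). Within the letters the differences were 0.23 for A, 0.19 for B and 0.50 for C on the log2 scale, so letter C gave the largest part of the mean difference. Left out with its letter, C still left a blocked log2 fold change of 0.21 (edgeR adjusted p = 0.00081), and without letter A or B the blocked value was 0.34 or 0.36. Few libraries remain in blocked fits without a letter, so their error comes almost wholly from the spread over all genes. Their p-values, for Jarid2 and for the members below, therefore say little about the spread of the gene itself. Jarid2 ranked 213 of 20027 genes by p-value in the treatment-only test, and 15.3% of tested genes had a fold change at least as large in size.

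Jarid2 lies on the plus strand of chromosome 13, from 44729474 to 44921643 in GRCm38. The only gene annotated over it on the opposite strand is the small nucleolar RNA gene Gm22213, which shares 0 bp of exon with it and averaged 0.0271 and 0.0210 CPM without and with MB-3. The counts of Jarid2 were 17135, 17554 and 13636 reads in DMSO and 20841, 17486 and 17344 reads in MB-3, so counting error was small beside the spread between libraries.

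Aebp2, a zinc finger protein and the other PRC2.2 subunit, moved in the same direction. It stood at 106, 112 and 101 CPM in DMSO A, B and C and at 123.3, 119.2 and 120.0 CPM in MB-3 A, B and C. All MB-3 libraries were above all DMSO libraries, and the mean went from 106 ± 5.46 to 121 ± 2.13 CPM (SD, n = 3). The log2 fold change was 0.18 (SE 0.056), with an edgeR adjusted p of 0.247 for treatment alone and 0.011 with the block. Leaving out letter A or letter C from the blocked fit ended the call (edgeR adjusted p = 0.097 and 0.073), whereas leaving out letter B did not (0.015). No annotated gene overlaps Aebp2, so the opposite-strand ambiguity of other members did not concern it.

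Promoter windows of the members that rose are printed here beside that of Suz12, a core member that was not called, to show their CpG content, and for Aebp2 only the most CpG-rich of its 3 windows is shown. RefSeq windows on GRCm38.p6 were matched by symbol for 9 of the 10 members (13 windows, since Jarid2, Mtf2 and Aebp2 have more than 1 start site), and no window was matched for Epop. Each line gives the 250 bases before a start site, 5′ to 3′ on the strand of the gene, with CpG dinucleotides in capitals.
Jarid2, first window, chr13:44730524-44730773, plus strand: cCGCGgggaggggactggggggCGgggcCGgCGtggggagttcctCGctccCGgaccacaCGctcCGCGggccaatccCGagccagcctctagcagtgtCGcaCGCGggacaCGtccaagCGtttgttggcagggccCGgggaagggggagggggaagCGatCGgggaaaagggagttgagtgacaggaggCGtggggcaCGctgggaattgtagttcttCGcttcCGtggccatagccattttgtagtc
Jarid2, second window, chr13:44731021-44731270, plus strand: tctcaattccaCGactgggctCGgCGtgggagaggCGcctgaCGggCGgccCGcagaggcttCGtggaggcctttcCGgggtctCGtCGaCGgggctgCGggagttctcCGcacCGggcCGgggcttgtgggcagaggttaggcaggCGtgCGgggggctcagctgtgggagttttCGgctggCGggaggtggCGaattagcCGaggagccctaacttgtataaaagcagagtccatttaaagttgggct
Aebp2, second window, chr6:140624659-140624908, plus strand: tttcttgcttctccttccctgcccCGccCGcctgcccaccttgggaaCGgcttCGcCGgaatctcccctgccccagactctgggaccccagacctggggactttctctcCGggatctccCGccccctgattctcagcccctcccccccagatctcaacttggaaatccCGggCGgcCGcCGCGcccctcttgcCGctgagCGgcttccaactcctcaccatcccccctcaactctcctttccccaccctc
Phf19, chr2:34913977-34914226, minus strand: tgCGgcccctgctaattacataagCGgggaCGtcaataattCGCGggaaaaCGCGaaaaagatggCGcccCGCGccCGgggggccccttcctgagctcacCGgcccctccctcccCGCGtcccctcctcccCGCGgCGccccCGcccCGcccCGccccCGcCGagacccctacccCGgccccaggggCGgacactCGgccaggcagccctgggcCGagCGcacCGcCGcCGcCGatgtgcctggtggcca
Suz12, chr11:79992856-79993105, plus strand: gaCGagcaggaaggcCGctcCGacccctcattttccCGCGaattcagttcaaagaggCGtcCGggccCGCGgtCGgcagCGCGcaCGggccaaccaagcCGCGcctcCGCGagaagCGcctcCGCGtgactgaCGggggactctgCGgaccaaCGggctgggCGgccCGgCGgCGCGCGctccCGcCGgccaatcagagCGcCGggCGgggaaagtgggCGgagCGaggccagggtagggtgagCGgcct
These windows hold 23 and 22 CpGs for Jarid2, 14 for Aebp2, 31 for Phf19 and 37 for Suz12, the largest number among the member windows. Over the 13 member windows the median was 22 CpGs and 63.6% G or C, compared with 6 CpGs and 52.4% over all 32851 windows. The other windows of Aebp2 hold 1 and 3 CpGs, and the second window of Mtf2 holds 2, so alternative start sites of the same gene differed. The E-box CACGTG, which reads the same on both strands, is in 0 of the 13 member windows and in 6.02% of all windows. TATAAA, searched on both strands, is in 1 member window, the second of Jarid2, and in 12.4% of all windows.

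Of the PRC2.1 subunits, Phf19 was the one that rose in the blocked fit. Its level was 13.6, 15.7 and 13.6 CPM in DMSO A, B and C and 15.8, 18.1 and 16.6 CPM in MB-3 A, B and C. Letter B was highest in both treatments, and the lowest MB-3 library (15.8 CPM) was only just above the highest DMSO library (15.7 CPM). The log2 fold change was 0.23 (SE 0.086), with an edgeR adjusted p of 0.328 for treatment alone and 0.031 with the block. The within-letter differences were 0.21, 0.20 and 0.29 on the log2 scale for A, B and C. The call did not hold in the blocked fit once any 1 letter was left out, where edgeR adjusted p-values ran from 0.088 to 0.160.

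Phf1, another Polycomb-like protein, was the only member lower in all MB-3 libraries than in all DMSO libraries. It stood at 9.31, 10.0 and 10.5 CPM in DMSO A, B and C and at 8.14, 8.38 and 8.63 CPM in MB-3 A, B and C. The difference was lower in each letter, with a log2 fold change of -0.25 (SE 0.090), and did not pass in either edgeR fit (adjusted p = 0.325 for treatment alone and 0.076 with the block). Phf1 shares 1370 bp of its 3486 bp of exon with Cuta on the opposite strand. Cuta averaged 35.7 CPM under DMSO and 34.3 CPM under MB-3, several times the level of Phf1, and the use of strand in the counting is not stated, so the count of Phf1 is uncertain.

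Mtf2, the most abundant Polycomb-like gene, was the flattest member. It had 438, 415 and 404 CPM in DMSO A, B and C and 435, 421 and 402 CPM in MB-3 A, B and C. Libraries of the same letter lay close together, and the log2 fold change was 0.00 with a 95% interval from -0.13 to 0.13. Epop, an adaptor of PRC2.1 that also binds Elongin, had 147, 174 and 139.7 CPM in DMSO and 140.1, 149.7 and 142 CPM in MB-3 for A, B and C. DMSO B was the high library, the groups overlapped, and the log2 fold change was -0.09 (95% interval -0.26 to 0.07, edgeR adjusted p = 0.686). The exons of Mtf2 and of Tmed5 on the opposite strand share 395 bp, and Tmed5 averaged 29.5 CPM without MB-3 and 30.1 CPM with it.

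The catalytic subunits gave different values. Ezh2 stood at 151, 157 and 143 CPM in DMSO A, B and C and at 145, 149.6 and 145 CPM in MB-3, with overlapping groups and a log2 fold change of -0.04 (95% interval -0.16 to 0.08, edgeR adjusted p = 0.855). Ezh1 stood at 40.8, 39.5 and 40.3 CPM in DMSO and at 45.8, 46.3 and 43.0 CPM in MB-3. Each MB-3 library was above each DMSO library for Ezh1, with a log2 fold change of 0.16 (SE 0.060). Its edgeR adjusted p was 0.324 for treatment alone and 0.053 with the block, so Ezh1 just missed the threshold there. In the blocked fit without letter C it passed (log2 fold change 0.20, edgeR adjusted p = 0.043), and without letter A or B it did not (0.237 and 0.292).

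Eed and Suz12, the non-catalytic core, gave no detectable difference. Eed had 189, 207 and 183 CPM in DMSO A, B and C and 182, 193 and 184 CPM in MB-3, a log2 fold change of -0.05 (95% interval -0.18 to 0.08, edgeR adjusted p = 0.808). Suz12 had 231, 223 and 218 CPM in DMSO and 219.8, 217 and 224 CPM in MB-3, a log2 fold change of -0.03 (95% interval -0.14 to 0.09, edgeR adjusted p = 0.895). For both genes the treatments overlapped and the block made no call. The intervals of Ezh2, Eed, Suz12 and Mtf2 reached at most 0.18 in size on the log2 scale. Short stretches of Eed (261 bp) and Suz12 (178 bp) are shared with opposite-strand genes, which averaged 0.639 CPM (E230029C05Rik) and 0.985 CPM (Gm26563) in DMSO.

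**Figure D2:**
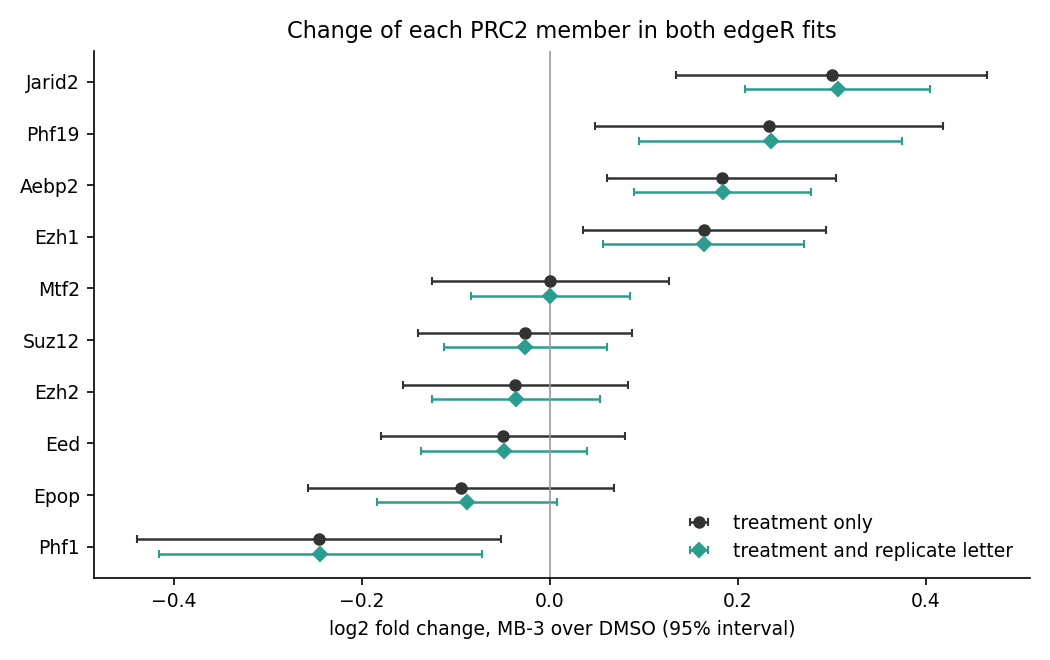
log2 fold change of MB-3 over DMSO (horizontal axis) for each member, with 95% intervals, from edgeR with treatment only (circles) and with treatment and replicate letter (diamonds). Estimates differ little between the fits and the intervals are narrower with the letter; Jarid2 lies at 0.30 and 0.31, Phf1 at -0.25 and -0.24.

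Ratios between members within a library do not depend on how libraries are scaled. Jarid2 exceeded the mean of the other 9 members by 2.06, 1.97 and 1.78 log2 units in DMSO A, B and C and by 2.28, 2.17 and 2.23 in MB-3 A, B and C. The groups were separate, with a difference of 0.29 between the means, and DMSO C was the lowest library. Taken against each other member in turn, Jarid2 was relatively higher in all MB-3 libraries against 6 of 9 members (Ezh2, Eed, Suz12, Mtf2, Phf1 and Epop). Against Aebp2, Phf19 and Ezh1 the libraries overlapped, with mean differences of 0.12, 0.07 and 0.14 log2 units and, for Phf19 and Ezh1, letters of both signs. With 3 libraries against 3, an exact permutation test (two-sided) cannot give less than p = 0.10, which is what complete separation gives, so none of these ratios could pass 0.05 in that test, which does not use the letters.

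PRC2.2 took a larger share of the accessory transcripts in every MB-3 library. Jarid2 and Aebp2 together made 24.5%, 23.5% and 22.5% of the summed level per kb of the 6 accessory members in DMSO A, B and C, and 28.1%, 26.9% and 28.1% in MB-3 A, B and C. All MB-3 libraries were above all DMSO libraries, by 4.17 percentage points between the means. The ratio of Ezh2 to Ezh1, also per kb, was 4.14, 4.43 and 3.95 in DMSO and 3.54, 3.60 and 3.76 in MB-3 for A, B and C. It was lower in all MB-3 libraries, although the letter C difference (-0.19) was smaller than those of A (-0.60) and B (-0.82). Per unit of the mean core level per kb (Ezh2, Eed and Suz12), Jarid2 went from 0.862 ± 0.0740 to 1.09 ± 0.0419 and Mtf2 from 1.87 ± 0.0807 to 1.92 ± 0.0896 (SD, n = 3). These multiples use exon unions, which for Ezh2 and Eed are well above their longest transcripts, so whether Jarid2 lies above or below the core level is not settled. All these are ratios of transcripts, and protein was not measured here.

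**Figure D3:**
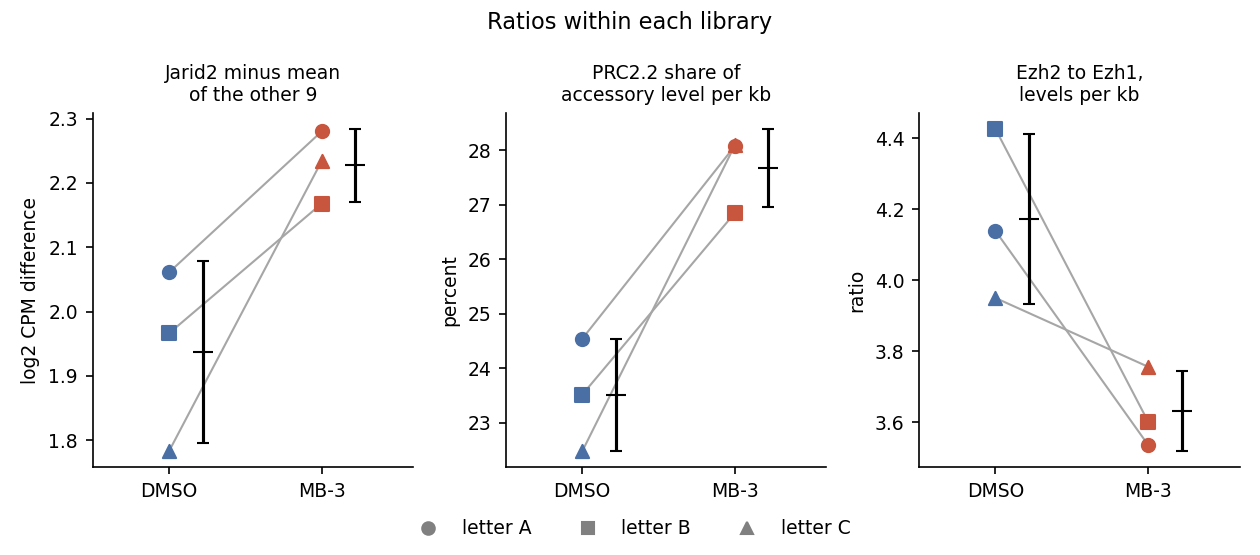
Left, Jarid2 minus the mean of the other 9 members in log2 CPM; middle, share of Jarid2 and Aebp2 in the summed accessory level per kb in percent; right, ratio of Ezh2 to Ezh1 levels per kb. Each symbol is a library (letter by shape), grey lines join letters, error bars are mean ± SD, the axes do not start at 0, and the treatments are separate in all 3 panels.

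The genes whose pattern over the 6 libraries was most like that of Jarid2 were Nrde2, Sbno1, Enah, Glud-ps and Mtdh, with Pearson's r of log2 CPM between 0.994 and 0.999 among 10163 genes of at least 10 CPM. These points share treatment, letter and depth, so r is only a description. Enah, a regulator of actin filaments, followed Jarid2 at 725, 705 and 621 CPM in DMSO and 793, 763 and 781 CPM in MB-3 for A, B and C. Of these 5 genes, Sbno1, Enah and Mtdh passed in the blocked edgeR fit (adjusted p = 0.014, 0.0062 and 0.017), where 7.12% of all genes were called. With treatment alone 0 passed, against 0.205% of all genes. The 5 were chosen for following Jarid2 over the same libraries, treatment difference included, so these calls add nothing separate. Among the members, Aebp2 was nearest to Jarid2 (r = 0.946, rank 125), followed by Ezh1 (0.755), Phf19 (0.741) and Mtf2 (0.372). Ezh2, Eed, Suz12 and Epop had r between -0.06 and 0.08. Phf1, under 10 CPM on average, was not ranked.

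Other measures moved with the same libraries. Genes of at least 10 CPM sorted by exon length into 5 equal groups had a median log2 fold change of -0.03 in the shortest group and 0.05 in the longest, which holds Jarid2 and Aebp2. The shares above 0 were 35.7% and 70.2% in these groups. Ezh1, Ezh2 and Mtf2 lie in the next longest group (median 0.02). The 5 mesendoderm markers, genes of cells leaving pluripotency, summed to 27.02, 16.5 and 50.99 CPM in DMSO A, B and C and to 10.5, 8.08 and 14.4 CPM in MB-3. T, the most abundant of them, was at 16.5, 9.05 and 32.5 CPM in DMSO and 4.68, 3.58 and 7.44 CPM in MB-3, and none of the 5 was at 0. DMSO C, the library lowest in Jarid2, was the highest in T. Of these 5 markers 4 (T, Eomes, Mixl1 and Fgf8) fell in the blocked edgeR fit, where 3.9% of all genes were called as lower. With treatment alone 0 of the 5 passed, against 0.205% of all genes. The part of exon length and of mesendoderm cells in the Jarid2 difference was not tested.

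Fibroblast markers, checked for feeder cells, summed to 9.62, 7.995 and 10.8 CPM in DMSO A, B and C and 6.73, 6.88 and 6.72 CPM in MB-3. Thy1 was the most abundant of the 7, at 3.25 CPM over all libraries, and the collagen genes Col1a1 and Col1a2, at most 2.2 CPM, fell in the blocked fit by 1.33 and 1.28 on the log2 scale. Extraembryonic endoderm markers summed to between 8.04 and 12.4 CPM, mostly from Dab2, and 0 of the 5 tested passed in either fit. Against these, the ES cell markers summed to 4759 to 5303 CPM. Of the 10 ES cell markers, Utf1 rose (log2 fold change 0.28) and Tfcp2l1 fell (-0.17) in the blocked fit, and 8 did not pass. Compared with all DMSO libraries, 3 of the 10 were lower in all MB-3 libraries and 0 were higher (7.37% and 8.22% of all genes). Of the 4 tested neuroectoderm markers, Pax6 rose (log2 fold change 0.39), Nes fell by 0.69 on the log2 scale and 2 did not pass in the blocked fit, with a median of 0.10 over the 4 in the treatment-only fit. Beside the counts of all these lists, 3.22% of all genes were called as higher and 3.9% as lower in the blocked fit. With treatment alone 0.205% of all genes were called. The part of these cell types in the PRC2 values was not tested.

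In the rest of the Polycomb system genes lay on both sides of 0. With treatment alone, 0 of 44 tested genes in the lists of other PRC2 partners, PRC1, H3K27 demethylases, the H2A deubiquitinase and trithorax methyltransferases were called. In that fit only 0.205% of all genes were called. In the blocked fit the 5 other PRC2 partners gave 0 calls, with Rbbp4 and Rbbp7, the histone chaperones of the core, at log2 fold changes of 0.03 and 0.00. In the treatment-only fit Lcor, whose locus also encodes the PRC2.1 partner PALI1, was at 0.23 and Ezhip, an inhibitor of Ezh2, at 0.12, both at low levels. PRC1 deposits the ubiquitin mark that PRC2.2 reads, and of its 22 tested subunits 3 rose (Bcor, Kdm2b and Phc1), 2 fell (Phc2 and Yaf2) and 17 did not pass in the blocked fit, where 3.22% of all genes were called as higher and 3.9% as lower. The median treatment-only log2 fold change of PRC1 was -0.03, against 0.00 over all tested genes and -0.01 over the 10 PRC2 members.

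Bcor, a scaffold of the variant PRC1 complex that Kdm2b brings to CpG islands, had the largest PRC1 rise. It stood at 62.3, 56.1 and 55.4 CPM in DMSO A, B and C and at 73.8, 71.4 and 73.6 CPM in MB-3, a log2 fold change of 0.33 (edgeR adjusted p = 0.052 for treatment alone). The groups were well apart, and Kdm2b (0.19) and Phc1 (0.18) were also higher in all MB-3 libraries. Phc2, a polyhomeotic relative of Phc1, was at 16.6, 16.1 and 20.6 CPM in DMSO and 13.7, 12.1 and 15.4 CPM in MB-3, a log2 fold change of -0.37. Yaf2 fell by 0.37 in the blocked fit from a level under 9 CPM. Rnf2, the ubiquitin ligase of PRC1, was level at 158 to 161 CPM in both treatments.

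Of the enzymes acting against Polycomb, the H3K27 demethylases Kdm6a and Kdm6b gave 0 calls (log2 fold changes 0.05 and 0.00). Asxl1, cofactor of the deubiquitinase Bap1, rose by 0.23 in the blocked fit, and the other 3 genes of that list, among them Asxl3 at 0.21, did not pass. Among 11 trithorax genes, which write the opposing H3K4 methylation, Setd1b (0.25), Kmt2b (0.17) and Setd1a (0.17) rose in the blocked fit (3.22% of all genes were called as higher there) and 8 did not pass. The list median was 0.09 in the treatment-only fit.

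**Figure D4:**
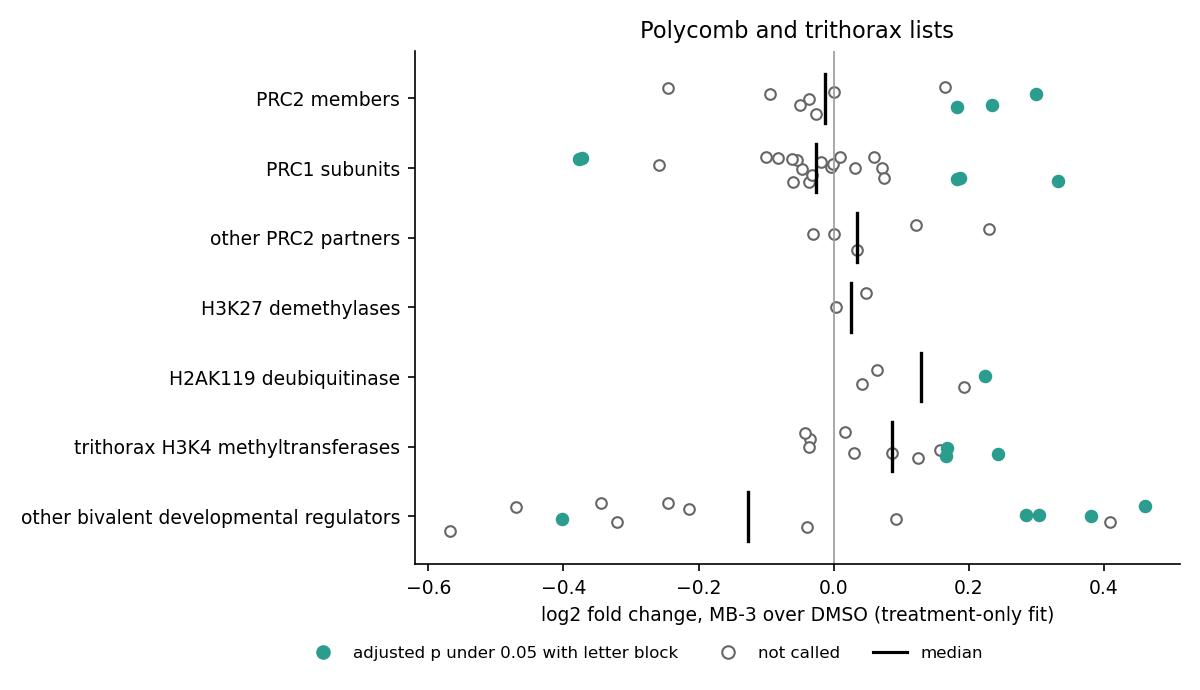
log2 fold change of MB-3 over DMSO (treatment-only edgeR fit, horizontal axis) for each tested gene of 7 lists; filled points passed adjusted p under 0.05 in the fit with the replicate letter, open points did not, and black lines are medians. PRC2 has 3 filled points, all to the right of 0, and PRC1 has 3 to the right and 2 to the left.

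The developmental genes that PRC2 marks were mostly silent in both treatments. Of 37 Hox genes in the table, 9 had enough reads to test, and 36 averaged under 1 CPM. Hoxc13, the most abundant, was at 2.31, 2.51 and 2.83 CPM in DMSO A, B and C and at 1.77, 1.78 and 2.099 CPM in MB-3, and 0 Hox genes passed in either edgeR fit (1 with an unadjusted p-value under 0.05 in the treatment-only fit). Hoxd9 (-0.73) and Hoxd13 (-0.71) had the largest log2 fold changes, at about 1 CPM or less. Of 29 other bivalent regulators counted, only 14 had enough reads to test, and 1 of these, Tbx3, fell with treatment alone (log2 fold change -0.40, edgeR adjusted p = 0.024, where 0.105% of all genes were called as lower). That call was lost without DMSO A, DMSO C, MB-3 A or MB-3 B (edgeR adjusted p = 0.083, 0.070, 0.135 and 0.165) and held with the block. Tbx3, which ES cells also express, went from 70.3, 66.3 and 66.2 CPM in DMSO to 52.7, 49.2 and 51.7 CPM in MB-3 for A, B and C. In the blocked fit 4 of the 14 rose, among them the developmental transcription factors Pax6 (0.39), Otx2 (0.30) and Foxd3 (0.29), and 1 (Tbx3) fell, against 3.22% and 3.9% of all genes. Msx1 (-0.57) and Cdx2 (-0.47) differed most in size but did not pass.

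H3K9ac peaks were assigned to 3 members, Suz12, Epop and Jarid2, by the gene names of the study's peak annotation, read from its first 1999 peaks per treatment. The other 7 members were searched for in the same way and were not among these names. They were not looked up by position, since no annotation of mm9, the build of the peaks, was used here. The lists hold positions only, with no height and no replicates, so only presence and width were compared. Over the whole DMSO list, 64.2% of 11724 peaks had no MB-3 peak overlapping them by at least 1 bp, and acetylated bases in MB-3 were 31.5% of those in DMSO.

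The Jarid2 peaks were broad. In DMSO the peak ran over chr13:44826750-44828892 (2143 bp) and in MB-3 over chr13:44826998-44828827 (1830 bp), entirely within the DMSO peak and 85.4% of its width. It was rank 97 of 11724 peaks by width in DMSO and rank 23 of 4673 in MB-3. Only the MB-3 peak was named, and the DMSO peak was found by its overlap with it. This search would miss a DMSO peak of Jarid2 lost under MB-3, and the DMSO list was not searched by position around the gene. The share kept therefore cannot be read as retention. Suz12 had peaks of 514 and 1388 bp in DMSO (chr11:79805827-79806340 and chr11:79806597-79807984) and of 304 and 1046 bp in MB-3, and both DMSO peaks had a partner. The summed width in MB-3 was 71.0% of that in DMSO, and 1244 of the 1902 DMSO bp were covered, since an MB-3 peak reached past the DMSO peak. Epop had 4 DMSO peaks with 2965 bp in all, the widest at chr11:97489099-97490869 (1771 bp), and 1 MB-3 peak of 586 bp inside it. Epop thus had 19.8% of its DMSO bases and lost 3 of 4 peaks, so that 3 of the 6 DMSO peaks found by name (Suz12 and Epop) were lost. When at least 50% of a DMSO peak had to be covered, all 4 Epop peaks and 0 Suz12 peaks were lost. Beside these widths, the log2 fold changes in RNA were -0.03 for Suz12 and -0.09 for Epop.

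**Figure D5:**
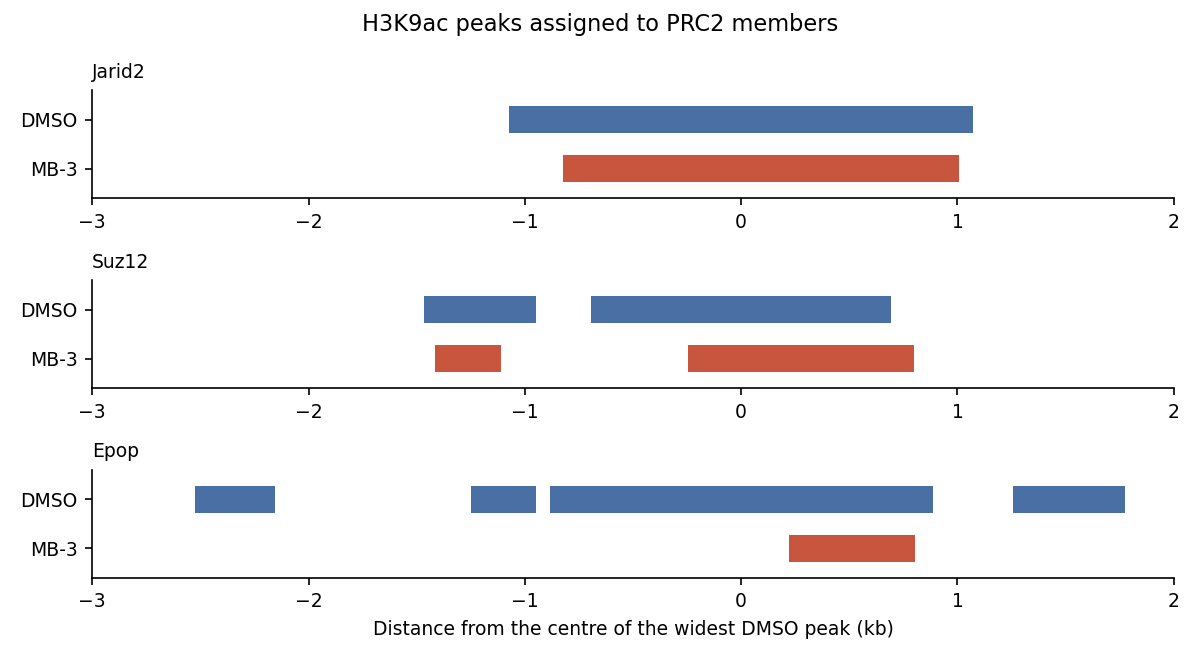
H3K9ac peaks assigned to Jarid2, Suz12 and Epop in DMSO (upper bars) and MB-3 (lower bars), drawn to scale against the distance in kb from the centre of the widest DMSO peak. Summed peak widths in MB-3 and DMSO are 1830 and 2143 bp at Jarid2, 1350 and 1902 bp at Suz12 and 586 and 2965 bp at Epop, and the DMSO peak of Jarid2 was found only by its overlap with the MB-3 peak.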

How the data were processed

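RNA was taken from TNGA cultures, 3 per treatment. Trimmed single-end reads were mapped by the authors with Bowtie (mm10) and summed over exons with GenomicAlignments, which gave the deposited raw counts per Ensembl gene, with versions, annotation release and use of strand not given in the sources used here. For H3K9ac, duplicates were mapped by the authors with BWA (mm9) and merged, and MACS2 peaks over input were deposited as positions without a score. Input libraries were not used here.

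Identifiers were matched to GENCODE M21 (GRCm38) for 30540 of 30677 genes. Counts were filtered with filterByExpr, normalized by TMM and tested with edgeR 4.0.16 (quasi-likelihood F-test, treatment only, Benjamini-Hochberg adjustment over 20027 genes, threshold 0.05). Levels are CPM on normalized library sizes, divided by the union of exons for values per kb, and ratios used log2(CPM + 0.1). All columns were used. Labels give the letters A, B and C in both treatments but do not say what they mark. Deviations from the treatment means correlated at 0.115, 0.287 and 0.232 for equal letters and negatively for all others. Deviations within a treatment cancel out for each gene, so the negative values follow on balance from the positive ones and are no separate support. From the equal-letter values, the letters were taken to pair the libraries. The fit with the letter as a block stands beside the unblocked one where it changes a call. Libraries of a treatment differed by more than counting noise. Whether they came from independent passages is not stated, so p-values measure the spread between these cultures.

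The members, gene lists and tests were chosen with earlier results of these data known. Named genes were the members, genes overlapping them on the opposite strand, listed genes past the threshold in either fit, the 2 largest changes of each list, the 5 genes most correlated with Jarid2, and markers. The result of 1 listed gene is not reported here. Alternatives were RLE and upper-quartile scaling, other filters, DESeq2 1.42.0, limma-voom (limma 3.58.1), the block and each library left out. Plots were drawn with matplotlib.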

Additional observations from a re-analysis of the deposited data

How the results depend on the processing

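Among the members, Jarid2, Aebp2, Phf19, Ezh1, Phf1, Ezh2 and Suz12 kept the sign of the log2 fold change under all 16 alternatives each, including 3 blocked fits without 1 letter that were chosen after seeing the data. Jarid2 passed under 6 of them, with log2 fold changes of 0.31 (replicate block), 0.34, 0.36 and 0.21 (replicate block, without letter A, B or C) and 0.30 (DESeq2). The blocked fits without a letter take their error almost wholly from the spread over all genes, so their calls carry little weight of their own. Leaving out 1 library without the block gave 0.21 to 0.36 for Jarid2, past the threshold only without DMSO B (0.34, edgeR adjusted p = 0.028). With no filter on low counts its edgeR adjusted p was 0.05045, just short of the threshold, and over the 16 alternatives it ran from 7.02e-07 to 0.543. The sign of Mtf2, at 0.0009, reversed with RLE (-0.00050), upper quartile (-0.0046), no filter (-0.0053), DESeq2 (-0.00048), the block without letter B (-0.011), and in the range -0.026 to 0.034 without 1 library. Eed (0.0033) and Epop (0.0063) reversed without DMSO B and ranged from -0.087 and -0.16 without 1 library. The cause was not tested for any of these.

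The number of members called was 3 with the replicate block, 1, 2 and 2 in the block without letter A, B or C, 1 with DESeq2 and 0 to 1 without 1 library. For all genes the 41 calls became 1425 with the replicate block, 939, 912 and 1037 in the block without letter A, B or C, 25 with upper quartile, 194 with no filter, 24 with a filter at 1 CPM, 192 with DESeq2, 18 with limma-voom and 0 to 520 without 1 library (3, 520 and 5 without DMSO A, B and C, 62 without MB-3 C, and 0 without MB-3 A or B, where edgeR gave 1440 and 1716 genes an unadjusted p under 0.05). In the Polycomb and trithorax lists the 0 calls became 9 with the replicate block, 8, 5 and 6 without letter A, B or C, 1 with no filter, 1 with DESeq2 and 0 to 2 without 1 library. In the Hox and bivalent lists the 1 call became 5 with the replicate block, 6, 5 and 4 without letter A, B or C, 2 with no filter, 2 with DESeq2 and 0 to 5 without 1 library (0 without DMSO A, DMSO C, MB-3 A or MB-3 B, where Tbx3 was lost). Among the other genes named, the block also changed the calls of Sbno1, Enah and Mtdh. It did so too for the mesendoderm, fibroblast, ES cell and neuroectoderm markers given above as called in the blocked fit. The ratio of Ezh2 to Ezh1 differed by -0.54 on exon unions and by -0.73 on the longest transcripts. The share of Jarid2 and Aebp2, the Jarid2 ratio and the H3K9ac bases moved by less than the spread between libraries or under 1.5 times. Depth limits Phf1, at 368 to 502 reads per library, more than the other members.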
